A study of Homo sapiens and Mus musculus with 16 samples.

Results

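P-body-seq counts of 10 genes of the core and primed pluripotency network were compared between P-bodies and cytoplasm. The genes were taken by symbol as a fixed list: POU5F1, SOX2, NANOG, SALL4, PRDM14, OTX2, DPPA4, TERF1, USP44 and FGF2. No measured value entered the rule, but the list was chosen with earlier results of these data known. All 10 were among the 22286 genes of the human table, and 9 of the 15881 genes of the mouse table carried the same symbols in mouse spelling. Fgf2 was not among the mouse symbols analysed here.

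P-bodies are cytoplasmic condensates of RNA and protein, and in this study they were sorted from lysed cells by the fluorescence of LSM14A, a P-body protein fused to GFP, and sequenced beside a cytoplasm fraction. Each of 4 cell types gave 2 P-body and 2 cytoplasm libraries, so that every mean ± SD within a fraction is of n = 2. The cytoplasm fraction was the resuspended material from which the P-bodies were then sorted, per the methods, so it still held P-bodies. The study describes the replicates as biologically independent samples, while the labels do not say whether they came from separate cultures. Liver bud progenitors are, by their name, hepatic-lineage cells. Like the neurons, collected on day 20, they came from a human embryonic stem (ES) line, UCLA4. That line carried LSM14A-GFP in the AAVS1 safe-harbour site under a tetracycline-regulated construct. Mouse ES cells of the line KH2, grown in serum with LIF, and HEK293T, a human embryonic kidney line, carried a lentiviral LSM14A-GFP under the EF1a promoter. The study's methods give naive mouse ES cells a medium with small-molecule inhibitors and LIF, and name no serum for it. The medium of the mouse libraries is therefore uncertain. Liver bud progenitor and neuron libraries are labelled polyA RNA, and mouse ES cell and HEK293T libraries total RNA, so molecule, library kit and cell type cannot be told apart in any comparison across that line, nor can the read-counting pipeline, which the methods give by library type. Undifferentiated human ES cells were not analysed here.

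POU5F1 (OCT4), SOX2 and NANOG are DNA-binding factors that occupy shared enhancers and promoters, their own included, and hold pluripotent cells in self-renewal. SALL4, PRDM14, OTX2 and DPPA4 are nuclear factors around this core, of which OTX2 marks the primed, post-implantation state. TERF1 binds telomeric repeats in the shelterin complex, USP44 removes ubiquitin from histone H2B and other substrates, and FGF2 is the growth factor on which primed human ES cells depend in culture.

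Because POU5F1 and SOX2 bind an octamer and a neighbouring SOX site, the letters TTTGCAT (octamer core) and ACAATG (SOX core) were searched on both strands in a set of promoter windows. Each window held the 250 bases before a RefSeq start site in GRCh38.p14. The set had windows for 5 of the 10 genes: SOX2, NANOG, OTX2, DPPA4 and FGF2. It held none for POU5F1, SALL4, PRDM14, TERF1 and USP44, which were not searched. The octamer core occurred in 3.94% of 35116 promoter windows, among them those of NANOG and SOX2, and the SOX core in 9.29%, among them that of NANOG. Both cores with 1 base between them occurred in 2 windows (0.0057%), of which NANOG's was one. The windows of these 2 genes are shown because they held the letters, which are set in capitals. The NANOG window spans chr12:7789152-7789401 on the plus strand, inside an intron of a NANOG transcript that starts further upstream in GENCODE 44, with the octamer core 120 and the SOX core 112 bases before the start site. The SOX2 window spans chr3:181711675-181711924 on the plus strand, inside an intron of SOX2-OT, with the octamer core on the minus strand (ATGCAAA) 100 bases before the start site.
NANOG: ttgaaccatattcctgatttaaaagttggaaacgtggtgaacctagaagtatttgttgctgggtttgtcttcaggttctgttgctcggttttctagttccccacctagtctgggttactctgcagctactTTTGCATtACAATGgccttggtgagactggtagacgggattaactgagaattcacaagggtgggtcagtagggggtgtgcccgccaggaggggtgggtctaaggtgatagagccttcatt
SOX2: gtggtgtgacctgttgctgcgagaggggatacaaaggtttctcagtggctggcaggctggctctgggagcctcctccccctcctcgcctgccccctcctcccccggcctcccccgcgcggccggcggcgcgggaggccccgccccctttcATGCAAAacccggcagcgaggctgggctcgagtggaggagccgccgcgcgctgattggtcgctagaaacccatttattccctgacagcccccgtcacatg

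Library totals ranged from 6368953 to 17972284 counts, at which 3 counts, taken as the floor of detection, were worth 0.167 to 0.471 CPM. Intervals and floors cover counting error only. Replicates differed by 2.35 to 38.1 in chi-square per gene, the highest value belonging to the P-body libraries of neurons. The cell labels were checked with marker lists. In liver bud progenitors, 18 of 19 liver bud markers were above the floor in cytoplasm and the list summed to 628 to 633 CPM, of which APOB gave 281 CPM. HNF4A was at 36.5, FOXA2 at 8.63, AFP at 7.54 and HHEX at 1.44 CPM, and ALB had 0 counts. The liver bud list summed to 62.2 to 67.8 CPM in neuron cytoplasm and 166 to 176 CPM in HEK293T cytoplasm. In mouse ES cells, with 13 of its 19 genes listed, it summed to 419 to 422 CPM in cytoplasm. P-bodies held 605 to 621 CPM of it in mouse ES cells and 372 to 388 CPM in liver bud progenitors. The liver bud libraries held all 11 listed markers of undifferentiated human ES cells above the floor, summing to 2765 to 2848 CPM in cytoplasm and 3700 to 3738 CPM in P-bodies. The same list summed to 151 to 160 CPM in neuron cytoplasm and 53.0 to 55.8 CPM in HEK293T cytoplasm. Whether undifferentiated cells were mixed with hepatic ones in the liver bud libraries was not tested. Neurons held all 14 neuron markers above the floor, and mouse ES cells all 15 naive ES markers. None of 10 feeder fibroblast markers was listed in the mouse table.

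Levels are CPM on TMM-scaled library totals, each cell type scaled on its own 4 libraries, and a gene was called at an adjusted p under 0.05. In liver bud progenitors 9 of the 10 genes were P-body-enriched and none depleted, where 21.4% of the 21951 genes tested were enriched and 17.1% depleted. The enriched count was 6 to 9 over 12 alternatives, lowest in a single fit of all human libraries. The median log2 change of the 10 genes was 0.63, against -0.09 over all genes tested. Of the 19 liver bud markers in the same libraries, 8 were depleted, among them HNF4A (-1.23), GATA4 (-1.21) and APOB (-1.22). The 3 enriched were APOA2 (0.74), PROX1 (0.49) and TTR (0.47). All 19 summed to 372 to 388 CPM in P-bodies. The part of such markers in the results for the 10 genes was not tested. P-bodies lay above cytoplasm in every library for 9 of the 10, as for 31.2% of all genes. Summed over the 10 genes, the level was 2889 ± 42.6 CPM in P-bodies and 1398 ± 3.39 CPM in cytoplasm, and TERF1 alone gave 1684 and 565 CPM of these sums. Scaling on library size alone moved the median of all genes to -0.28 and turned the split from 4708 enriched and 3747 depleted to 3822 and 4850.

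**Figure D1:**
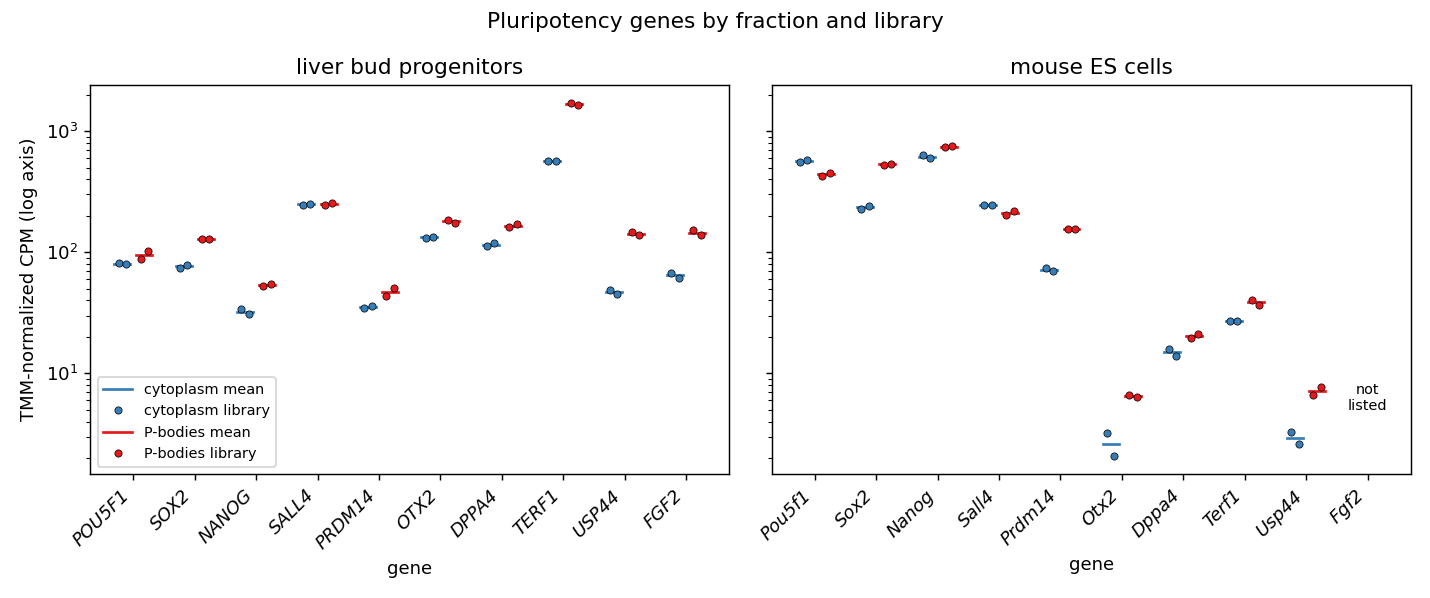
Level of each gene in every library of liver bud progenitors (left) and mouse ES cells (right), in TMM-normalized CPM on a log axis; points are libraries and short lines the means of 2. P-body points lie above cytoplasm points for 9 of 10 human and 7 of 9 mouse genes, and Pou5f1 and Sall4 lie lower in P-bodies of mouse ES cells, as Nanog did with library size alone.

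Among the core factors in liver bud progenitors, SOX2 read 128 and 128 CPM in the P-body libraries and 73.8 and 78.9 CPM in cytoplasm. Both P-body values were above both cytoplasm values, a log2 change of 0.75 ± 0.08 (SE) with an edgeR adjusted p of 2.25e-12. NANOG read 52.9 and 55.1 CPM in P-bodies and 33.7 and 30.9 CPM in cytoplasm, which gave a log2 change of 0.75 ± 0.11 (edgeR adjusted p = 5.7e-08). The fractions of NANOG did not overlap, and it was the lowest of the 10 genes per kilobase of transcript. POU5F1 differed least of the 3, with 88.3 and 101 CPM in P-bodies against 81.4 and 79.4 CPM in cytoplasm. Its log2 change of 0.24 ± 0.09 passed the test (edgeR adjusted p = 0.0195) but lost the call with DESeq2 (adjusted p = 0.165), filterByExpr (0.143), the single human fit (0.463) and library size alone (log2 change 0.054, 0.679), without cytoplasm replicate 2 (edgeR adjusted p = 0.169) and without P-body replicate 2 (log2 change 0.13, edgeR adjusted p = 0.433), in a range of adjusted p from 0.0112 to 0.679 over 12 alternatives.

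The counting could divide reads between near-identical copies. NANOGP8, a processed copy of NANOG, was listed at 9.08 CPM in P-bodies and 7.43 CPM in cytoplasm of liver bud progenitors, and POU5F1B at 0.375 and 0.493 CPM, so NANOG and POU5F1 levels are uncertain by what was assigned to these. SOX2 lies within SOX2-OT on the same strand, and unspliced SOX2-OT RNA in the overlap cannot be told from SOX2. SOX2-OT had 81 and 64 counts in P-bodies and 18 and 15 in cytoplasm, against 1144 and 1240, and 504 and 624 counts of SOX2. Exons of FGF2 overlap NUDT6 on the other strand, and exons of POU5F1 overlap TCF19 likewise, and the strand setting of the counting is not given in the sources used here. NUDT6 moved with FGF2 in these cells, by 1.02 ± 0.10 on the log2 scale, and whether its reads entered the FGF2 counts was not tested.

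Of the factors around the core, DPPA4 read 160 and 170 CPM in P-bodies and 112 and 119 CPM in cytoplasm of liver bud progenitors (log2 change 0.51 ± 0.07, edgeR adjusted p = 1.84e-08). OTX2 read 184 and 175 CPM against 131 and 135 CPM (0.43 ± 0.07, edgeR adjusted p = 5.65e-07). PRDM14 read 43.7 and 50.7 CPM against 34.7 and 36.2 CPM (0.42 ± 0.11, edgeR adjusted p = 0.00213). None of the 3 overlapped between fractions. PRDM14 lost its call with DESeq2 (adjusted p = 0.0588), library size alone (log2 change 0.23, edgeR adjusted p = 0.111) and the single human fit (edgeR adjusted p = 0.216). It also lost the call without P-body replicate 2 (log2 change 0.30). Its adjusted p ranged from 0.000873 to 0.216 over 12 alternatives. SALL4 was the exception, with 244 and 253 CPM in P-bodies and 246 and 251 CPM in cytoplasm. The fractions overlapped, at a log2 change of 0.0011 ± 0.06 (edgeR adjusted p = 0.990). Its sign turned under 9 of 12 alternatives, and with library size alone it was called depleted at -0.19 (edgeR adjusted p = 0.0184).

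TERF1, USP44 and FGF2 had the largest P-body enrichment of the 10 genes in liver bud progenitors. TERF1 was carried by 15333 and 15919 counts in P-bodies and 3874 and 4450 in cytoplasm, or 1720 and 1648 CPM against 567 and 563 CPM. That is a 2.98-fold difference (log2 change 1.58 ± 0.05, edgeR adjusted p = 5.45e-39). USP44 stood at 146 and 138 CPM in P-bodies and 48.9 and 45.3 CPM in cytoplasm, 3.02-fold (1.597 ± 0.086, edgeR adjusted p = 1.5e-25). FGF2 stood at 152 and 139 CPM against 66.9 and 61.7 CPM, 2.26-fold (1.18 ± 0.08, edgeR adjusted p = 4.47e-20). These 3 genes kept their calls under all 12 alternatives.

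Mouse ES cells held 7 P-body-enriched and 2 depleted genes of the 9 listed, where 25.8% of the 15881 genes tested were enriched and 20.6% depleted. The median log2 change of the 9 was 0.52, against -0.11 over all genes. P-bodies were above cytoplasm in every library for 7 of the 9, as for 33.6% of all genes. Summed CPM of the 9 genes was 2155 ± 45.2 in P-bodies and 1778 ± 9.80 in cytoplasm. This order depended on the scaling: on library size alone the sums were 1875 and 2044 CPM, the median of all genes moved to -0.51, and the split of 4104 enriched and 3271 depleted genes became 2591 and 6609. With that scaling 4 of the 9 genes were enriched and 3 depleted.

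Pou5f1, the most abundant of the 9 genes per kilobase in cytoplasm, was depleted from P-bodies. It read 429 and 448 CPM in P-bodies and 561 and 573 CPM in cytoplasm, which is -0.37 ± 0.04 on the log2 scale (edgeR adjusted p = 3.43e-08). Sox2 went the other way, with 529 and 540 CPM against 228 and 241 CPM (1.19 ± 0.04, edgeR adjusted p = 4e-17). Nanog read 736 and 752 CPM against 629 and 599 CPM (0.28 ± 0.04, edgeR adjusted p = 1.81e-06). The fractions were apart in each of these 3 genes, but with library size alone the change of Nanog turned to -0.13 and was called depleted, while Pou5f1 and Sox2 kept direction and call in all 11 alternatives. Per kilobase of the longest transcript, Pou5f1 (412 and 421) stood above Nanog (285 and 271) and Sox2 (111 and 117) in cytoplasm. In P-bodies Nanog (333 and 340) was above Pou5f1 (315 and 329), with Sox2 (257 and 262) next.

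Among the remaining mouse genes, Prdm14 was P-body-enriched 2.16-fold, at 155 and 155 CPM against 73.8 and 69.8 CPM (log2 change 1.11 ± 0.06, edgeR adjusted p = 1.42e-13). Sall4 was depleted, at 201 and 220 CPM against 244 and 243 CPM (-0.21 ± 0.05, edgeR adjusted p = 0.00138). The Sall4 call rested on P-body replicate 1, without which the change was -0.15 (edgeR adjusted p = 0.0638, range 2.41e-11 to 0.0638 over 11 alternatives). Terf1 read 40.3 and 36.9 CPM against 27.0 and 27.0 CPM (0.52 ± 0.11, edgeR adjusted p = 0.000327) and Dppa4 19.7 and 21.0 CPM against 15.9 and 13.8 CPM (0.45 ± 0.15, edgeR adjusted p = 0.018). Dppa4 was not called with DESeq2 (adjusted p = 0.113), without cytoplasm replicate 2 (0.110) or without P-body replicate 2 (0.0845, range 0.0141 to 0.798 over 11 alternatives), and neither gene was called with library size alone. Otx2 and Usp44, both scarce in these cells, were enriched on few counts: 67 and 60 against 30 and 20 for Otx2 (1.30 ± 0.28, edgeR adjusted p = 0.000451), and 67 and 73 against 31 and 25 for Usp44 (1.28 ± 0.26, edgeR adjusted p = 0.000247).

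**Figure D2:**
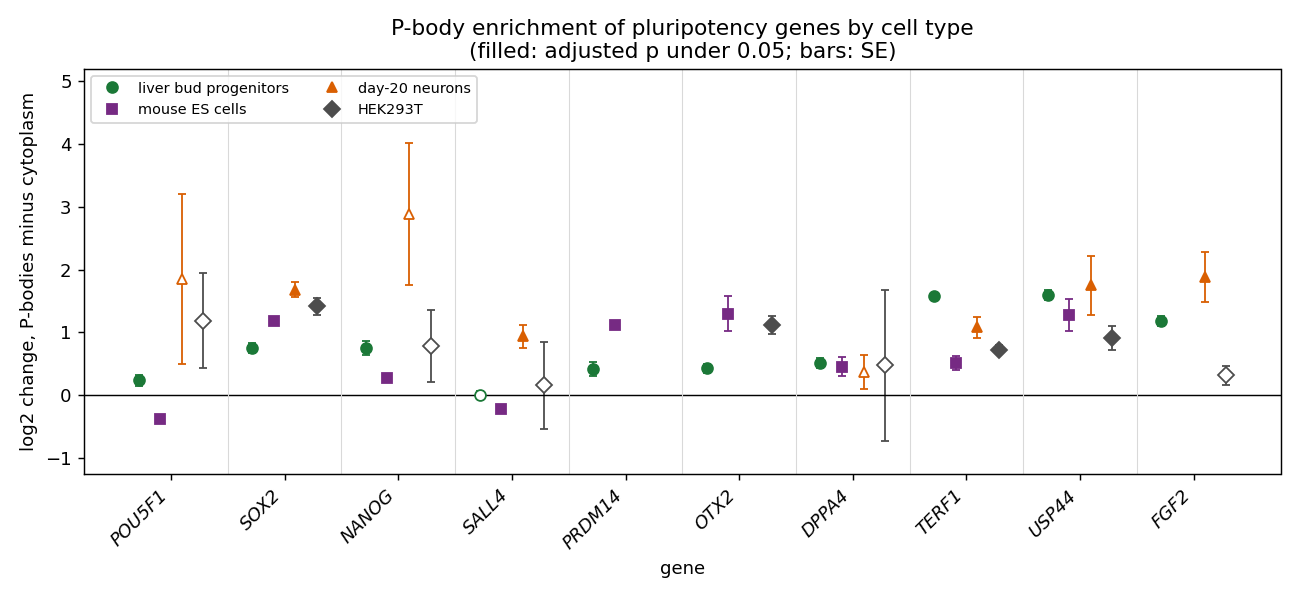
Log2 change of each gene between P-bodies and cytoplasm (vertical axis) in the 4 cell types, with bars of 1 SE; filled symbols passed an adjusted p of 0.05 and open symbols did not, and genes with a fraction at or under 3 counts in each library have no symbol. SOX2, TERF1 and USP44 are above 0 and filled in every cell type, while POU5F1 and SALL4 lie below 0 in mouse ES cells.

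In neurons the level of 9 of the 10 genes was far below that of liver bud progenitors in cytoplasm, where 26% of the 21900 genes tested were higher and 25.8% lower in neurons. Fewer cells that express a gene and less of its RNA per cell cannot be told apart in these bulk libraries. POU5F1 had 5 and 1 counts in neuron cytoplasm against 556 and 628 in liver bud progenitors, a ratio of 238 with a 95% counting interval of 109 to 651. The ratio was 81.8 (39.4 to 205) for NANOG, 211 (71.7 to 1025) for PRDM14 and 474 (203 to 1461) for OTX2, each with 7 or fewer neuron counts. SALL4 was 9.53-fold, DPPA4 7.97-fold, TERF1 16.9-fold, USP44 18.5-fold and FGF2 18.4-fold lower in neurons, with edgeR adjusted p between 1.71e-50 and 5.02e-29. These 9 genes kept direction and call under all 12 alternatives.

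SOX2, which neural progenitors also use, did not follow. Its cytoplasm level was 77.7 and 68.9 CPM in neurons and 68.8 and 73.8 CPM in liver bud progenitors when scaled together, and the groups overlapped (log2 difference 0.04 ± 0.11, edgeR adjusted p = 0.789). The sign was not stable, at -0.01 in a single fit of all human libraries and -0.35 with library size alone (edgeR adjusted p = 0.00708, range 0.00708 to 0.998 over 12 alternatives). In P-bodies SOX2 was higher in neurons, 238 and 201 CPM against 127 and 126 CPM (log2 difference 0.79 ± 0.10, edgeR adjusted p = 0.000162). The other 9 genes were lower in neuron P-bodies, where 18.4% of the 22166 genes tested were higher and 22.7% lower. Library size alone moved the median of all genes from -0.16 to -0.52 in cytoplasm, and the split from 5696 higher and 5648 lower to 4173 and 7270.

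**Figure D3:**
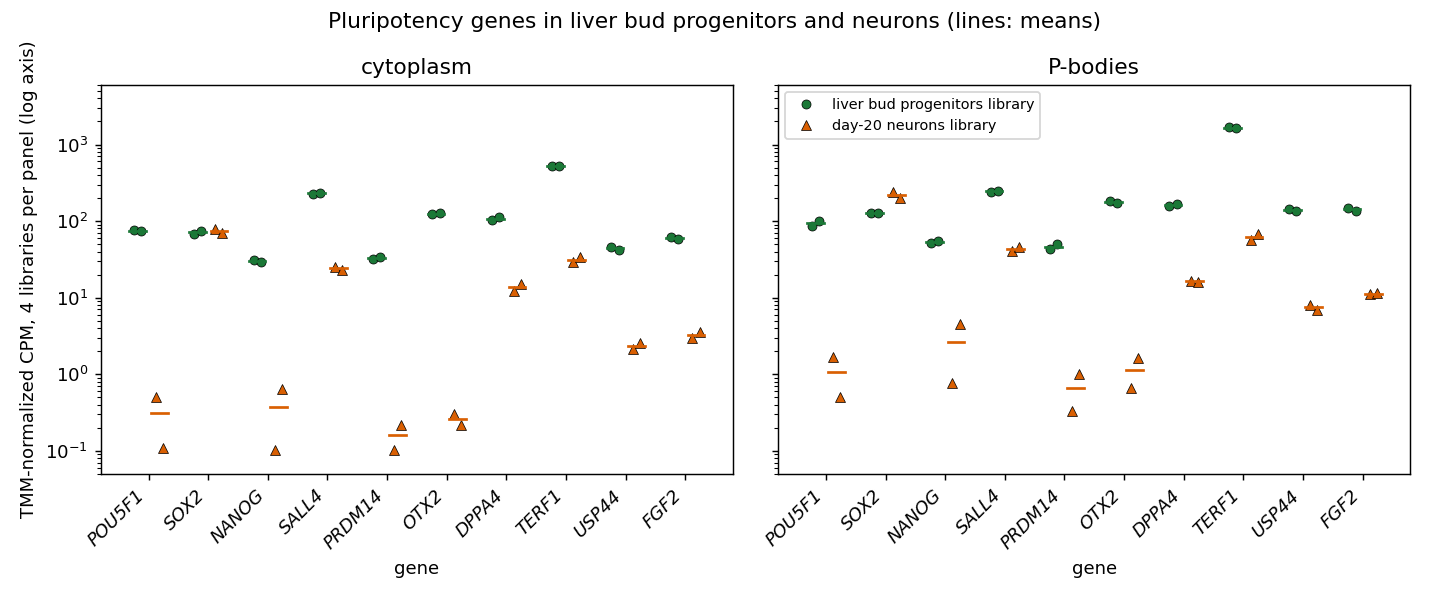
Level of each gene in cytoplasm (left) and P-body (right) libraries of liver bud progenitors and day-20 neurons, in CPM normalized over the 4 libraries of each panel, on a log axis; points are libraries and lines means. SOX2 alone has overlapping points in cytoplasm and neuron points above liver bud points in P-bodies; POU5F1, NANOG, PRDM14 and OTX2 lie near or below 1 CPM in neuron cytoplasm.

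Between the fractions of neurons, 5 of the 10 genes were P-body-enriched and none depleted, where 14.6% of the 22093 genes tested were enriched and 14.1% depleted. P-bodies lay above cytoplasm in every library for all 10, as for 34.9% of all genes, and the median log2 change was 1.80, or 1.71 with the 2 genes whose cytoplasm was at the floor set to it, against 0.19 over all genes. SOX2 read 238 and 198 CPM in P-bodies and 72.0 and 63.8 CPM in cytoplasm (log2 change 1.68 ± 0.12, edgeR adjusted p = 4.4e-07). Of 13 listed markers of neural progenitors, 1 (EMX2) at the floor, 5 were enriched and 3 depleted, with a median of 0.10. PAX6 (2.17) was higher in P-bodies like SOX2, and NES (-0.88), MSI1 (-1.05) and NOTCH1 (-1.18) lower. The list summed to 3890 to 3963 CPM in P-bodies and 2362 to 2394 CPM in cytoplasm, of which the cell-cycle genes MKI67 and TOP2A gave 1845 and 814 CPM in P-bodies.

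TERF1 (56.0 and 66.9 CPM against 26.9 and 31.1 CPM) and SALL4 (40.8 and 45.5 CPM against 23.6 and 21.4 CPM) were enriched in neuron P-bodies by 1.08 ± 0.17 and 0.94 ± 0.18 on the log2 scale (edgeR adjusted p = 0.000288 and 0.00174). FGF2 had 100 and 114 counts in P-bodies and 29 and 33 in cytoplasm (1.88 ± 0.39, edgeR adjusted p = 0.00265), and USP44 72 and 69 counts against 21 and 24 (1.75 ± 0.47, edgeR adjusted p = 0.014). Both lost the call without cytoplasm replicate 1, FGF2 at an adjusted p of 0.0524 (range 3e-07 to 0.0524 over 12 alternatives) and USP44 at 0.179 (range 1.66e-05 to 0.179), and USP44 also without cytoplasm replicate 2 (0.102). DPPA4 was not called, at 16.7 and 15.9 CPM against 11.3 and 13.8 CPM.

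NANOG had 7 and 45 counts in neuron P-bodies and 1 and 6 in cytoplasm, so that 1 library carried most of its P-body reads. Its ratio on summed counts was 7.98 with a counting interval of 3.61 to 20.8, and its edgeR adjusted p of 0.0754 fell to 0.000320 without P-body replicate 1 (range 0.000320 to 0.565 over 11 alternatives). POU5F1 had 15 and 5 counts against 5 and 1, OTX2 6 and 16 against 3 and 2, and PRDM14 3 and 10 against 1 and 2. None of these was called, and OTX2 and PRDM14 lay at or under 3 counts in both cytoplasm libraries.

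HEK293T cells expressed a smaller set. In cytoplasm TERF1 was at 97.3 and 102 CPM, SOX2 at 15.5 and 14.9, FGF2 at 15.4 and 13.9, OTX2 at 12.4 and 15.4 and USP44 at 5.46 and 7.75 CPM, and the other 5 genes were under 1 CPM in each cytoplasm library. Of the 10 genes, 4 were P-body-enriched and none depleted, where 19.3% of the 21903 genes tested were enriched and 22.8% depleted. P-bodies were above cytoplasm in every library for 7 of the 10, 1 of which, PRDM14, was at or under the floor in both fractions, and for 31.1% of all genes. The median log2 change of 9 genes, without PRDM14 whose fractions were both at the floor, was 0.79 against -0.0072 over all genes.

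SOX2 had 649 and 634 counts in HEK293T P-bodies and 193 and 175 in cytoplasm, 2.67-fold in CPM (log2 change 1.42 ± 0.13, edgeR adjusted p = 2.98e-14). OTX2 had 458 and 496 counts against 154 and 181 (1.12 ± 0.14, edgeR adjusted p = 7.5e-10). TERF1 stood at 159 and 171 CPM in P-bodies (0.73 ± 0.07, edgeR adjusted p = 9.04e-14) and USP44 at 12.3 and 12.4 CPM (0.91 ± 0.19, edgeR adjusted p = 6.38e-05). FGF2, at 18.6 and 18.0 CPM, did not overlap its cytoplasm values but missed the threshold (0.32 ± 0.15, edgeR adjusted p = 0.0912) and passed with RLE size factors (adjusted p = 0.0265), in a range of 0.0153 to 0.373 over 12 alternatives. POU5F1, NANOG, SALL4 and DPPA4 had 9 to 40 counts summed over P-body libraries and 5 to 18 over cytoplasm libraries, and none passed the test.

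An interaction term over 8 libraries asked whether P-body enrichment itself was unequal in neurons and liver bud progenitors. The enrichment was larger in neurons for 4 of the 10 genes and smaller for 1, where it was larger for 9.21% and smaller for 8.5% of the 22268 genes tested. SALL4 rose from a log2 change of 0.0011 in liver bud progenitors to 0.94 in neurons, a difference of 0.93 ± 0.14 (edgeR adjusted p = 0.000207), and SOX2 differed by 0.93 ± 0.16 (edgeR adjusted p = 0.000671). TERF1 was less enriched in neurons, by -0.50 ± 0.12 (edgeR adjusted p = 0.00925). Its call was lost with filterByExpr (-0.35, edgeR adjusted p = 0.0561) and library size alone (edgeR adjusted p = 0.542). It was also lost without P-body replicate 1 of liver bud progenitors (-0.48). OTX2 (1.74 ± 0.56, edgeR adjusted p = 0.0428) and FGF2 (0.70 ± 0.22, edgeR adjusted p = 0.043) passed narrowly. FGF2 lost the call without any 1 of the 8 libraries (adjusted p from 0.00423 to 0.267 over 16 alternatives), and OTX2 without any but P-body replicate 1 of neurons (0.00730 to 0.490). The OTX2 difference leaned on 5 neuron cytoplasm counts. Over all genes the median was 0.23. Scaled on library size alone, it was 0.58, the split of 2050 larger and 1892 smaller became 3520 and 940, and TERF1 was at -0.14 and no longer called.

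Against HEK293T, 2 of the 10 genes were more enriched than in liver bud progenitors and 2 less, where 15% of the 22242 genes tested were more and 12.5% less enriched in HEK293T. SOX2 and OTX2 were more enriched in HEK293T, by 0.89 ± 0.15 and 0.91 ± 0.14 (edgeR adjusted p = 2.22e-06 and 6.44e-07). TERF1 and FGF2 were less enriched, by -0.62 ± 0.08 and -0.63 ± 0.15 (edgeR adjusted p = 1.43e-08 and 0.00106). Cell type, molecule and counting pipeline cannot be told apart here. The split of 3339 more and 2788 less enriched genes became 2510 and 3665 with library size alone. These comparisons share the liver bud libraries.

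Further genes of the pluripotency network were read from a list of 24, of which 23 were tested. Over all genes tested, 21.4% were enriched and 17.1% depleted in liver bud progenitors, and 25.8% and 20.6% in mouse ES cells. The shares were 14.6% and 14.1% in neurons and 19.3% and 22.8% in HEK293T. Some counts of this and the next lists lie near these shares, and no list was tested as a set. In liver bud progenitors 7 of the 23 were P-body-enriched and 5 depleted, with a median log2 change of 0.34. L1TD1, an RNA-binding protein of pluripotent cells, was at 1463 ± 62.1 CPM in P-bodies and 461 ± 18.5 CPM in cytoplasm, and CDH1, the E-cadherin gene, at 270 ± 25.6 and 435 ± 5.34 CPM. In mouse ES cells 7 were enriched and 5 depleted, with a median of -0.03: Lin28b, which blocks let-7 maturation, was at 89.1 ± 6.13 against 36.9 ± 2.01 CPM, and the TGF-beta ligand gene Gdf3, most depleted among genes averaging at least 20 CPM, at 47.0 ± 2.28 against 61.5 ± 2.75 CPM. In neurons 3 were enriched and 1 depleted, led by LIN28B (102 ± 13.0 against 10.2 ± 1.30 CPM) and PODXL, a surface sialomucin (66.7 ± 5.54 against 90.6 ± 0.80 CPM). HEK293T cells had 3 and 1, led by JARID2, a Polycomb partner (327 ± 4.83 against 148 ± 5.32 CPM), and PODXL (19.5 ± 2.03 against 28.3 ± 1.21 CPM).

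Downstream of FGF2, the 14 receptor and feedback genes were split between fractions. Of these, 4 were enriched and 5 depleted in liver bud progenitors, 6 and 1 in mouse ES cells, 2 and 2 in neurons and 5 and 3 in HEK293T, with median log2 changes of 0.16, 0.22, -0.0024 and 0.48. Among genes averaging at least 20 CPM, here and in the lists that follow, ETV1, an ETS transcription factor induced by FGF signalling, led the enriched genes in each cell type, with changes of 1.46 ± 0.08, 1.86 ± 0.12, 1.86 ± 0.17 and 1.13 ± 0.13. The receptor FGFR1 led the depleted genes in mouse ES cells (-0.36 ± 0.07) and HEK293T (-0.42 ± 0.08), FGFR3 in neurons (-1.42 ± 0.14), and SPRED2, an inhibitor of Ras signalling, in liver bud progenitors (-0.67 ± 0.13). SPRED2 had the other direction in mouse ES cells, at 0.77 ± 0.05. Below that level, and picked after their values were seen, FGFR4 (-1.49) and FGFR3 (-0.52) in HEK293T and ETV4 (-0.72) in liver bud progenitors were depleted further.

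The shelterin partners of TERF1 were far less abundant than TERF1 in liver bud progenitors, where POT1, which binds the single-stranded telomere end, was at 24.6 ± 2.27 CPM in P-bodies and 16.0 ± 0.85 CPM in cytoplasm. Of 5 partners, 2 were enriched and none depleted there, none and 3 in neurons, and 2 and 2 in HEK293T, and of 4 tested in mouse ES cells 1 was enriched. Median log2 changes were -0.0043, -0.71, 0.08 and 0.0028 in that order. TERF2, its closest relative, was enriched in liver bud progenitors (0.36 ± 0.15), mouse ES cells (0.67 ± 0.08) and HEK293T (0.70 ± 0.10), and TINF2, which bridges TERF1 and TERF2, was depleted in neurons (-0.94 ± 0.24) and HEK293T (-0.42 ± 0.13). ACD, under 20 CPM and picked after its values were seen, was depleted further in both (-1.27 and -1.06).

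Paralogs of the 10 genes gave 2 enriched and 4 depleted of 18 tested in liver bud progenitors, 8 and none of 13 in mouse ES cells, 4 and 2 of 18 in neurons and 8 and none of 18 in HEK293T, with medians of 0.13, 0.52, 0.38 and 0.62. POU2F1 (OCT1), which binds the same octamer, led in human cells with changes of 0.65 ± 0.05, 2.16 ± 0.07 and 1.08 ± 0.05 in liver bud progenitors, neurons and HEK293T. Prdm1, a zinc-finger repressor, led in mouse ES cells (1.69 ± 0.06). SALL2 led the depleted paralogs of liver bud progenitors (-0.50 ± 0.08) and neurons (-0.74 ± 0.09). Under 20 CPM, and picked after their values were seen, PRDM1 was enriched further in neurons (3.52) and HEK293T (1.51), and POU5F2 in liver bud progenitors (-1.35) and SOX3 in neurons (-1.14) were depleted further.

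Chromatin partners of OCT4 and SOX2 divided about evenly, with 4 enriched and 6 depleted of 13 in liver bud progenitors, 6 and 5 in mouse ES cells, 4 and 4 in neurons and 4 and 5 in HEK293T, and medians of -0.28, 0.04, -0.19 and -0.27. ZMYM2, a zinc-finger corepressor, led the enriched ones in every cell type, with changes of 1.04 ± 0.05, 1.54 ± 0.04, 1.22 ± 0.09 and 1.12 ± 0.06. The NuRD subunit MTA1 led the depleted ones in liver bud progenitors (-0.80 ± 0.10) and neurons (-1.13 ± 0.13), the NuRD remodeller Chd4 in mouse ES cells (-0.64 ± 0.04), and the histone demethylase KDM1A in HEK293T (-1.20 ± 0.08).

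On a per-kilobase scale, dividing CPM by the longest annotated transcript, TERF1 led in liver bud cytoplasm (133 ± 0.73 CPM per kilobase), before SALL4 (47.7), OTX2 (44.1), DPPA4 (38.0), POU5F1 (35.3), SOX2 (30.4), PRDM14 (15.6), USP44 (11.7), FGF2 (9.46) and NANOG (6.23). No neighbours in that order overlapped between their 2 libraries. In P-bodies SALL4 (47.7) stood below OTX2 (59.6), DPPA4 (54.3) and SOX2 (51.1), and FGF2 (22.4 and 20.4) and PRDM14 (19.3 and 22.4) overlapped. In mouse ES cells the neighbours Otx2 (1.23 and 0.799) and Usp44 (1.12 and 0.879) overlapped in cytoplasm. In P-bodies they overlapped too (2.54 and 2.44, 2.24 and 2.61), as did Dppa4 (13.3 and 14.2) and Terf1 (13.9 and 12.7). The transcript in use may be shorter than the longest annotated.

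Over the 12 human libraries, the gene most like each of the 10 by Pearson's r of log2 CPM, among 11042 candidates, was SERINC5 for POU5F1 (r = 0.991), ZC3H13 for SOX2 (0.991), S100A14 for NANOG (0.975), IQCA1 for SALL4 (0.993), TDGF1 for PRDM14 (0.995), DSC2 for OTX2 (0.993), ARMCX2 for DPPA4 (0.992), CLIC4 for TERF1 (0.994), SLC39A10 for USP44 (0.993) and C18orf54 for FGF2 (0.996). The second was TRIM71, PLCB1, CCDC169, PWAR6, ZFP42, GJA1, PWAR6, ZNF525, SKIL and SKIL in the same order of genes. The 12 libraries are 3 cell types in 2 fractions, so these values mostly follow the cell types.

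In hg38 with GENCODE 44 they are POU5F1 at chr6:31164337-31180731, SOX2 at chr3:181711925-181714436, NANOG at chr12:7787794-7799146, SALL4 at chr20:51782331-51802521, OTX2 at chr14:56799905-56816693, DPPA4 at chr3:109326144-109337546, USP44 at chr12:95516560-95551476, FGF2 at chr4:122826682-122898236, PRDM14 at chr8:70051651-70071693 and TERF1 at chr8:73008856-73048123, all protein-coding. GC content of the longest transcript was below the median of all listed genes (48.0%) in 6 of the 10. TERF1 (37.4%), FGF2 (37.6%) and USP44 (37.9%) were lowest, and they were also the 3 most P-body-enriched in liver bud progenitors. PRDM14 (54.4%), SALL4 (51.3%), SOX2 (50.7%) and POU5F1 (49.5%) were above the median. Spearman's rho between GC and log2 change was -0.745 over the 10 genes in liver bud progenitors and -0.433 over 9 in mouse ES cells, where the depleted Pou5f1 (57.6%) and Sall4 (53.8%) had the highest GC. In neurons and HEK293T rho was 0.030 over the 10 genes in each. These ranks include genes of few counts: in neurons NANOG, OTX2, POU5F1 and PRDM14 had SEs of 1.13 to 1.59. In HEK293T, PRDM14 was at or under the floor in both fractions, and NANOG, SALL4, POU5F1 and DPPA4 had SEs of 0.57 to 1.20. A rho without these genes was not computed. The points of each rho share the same 4 libraries, and the rho values are given as a description.

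**Figure D4:**
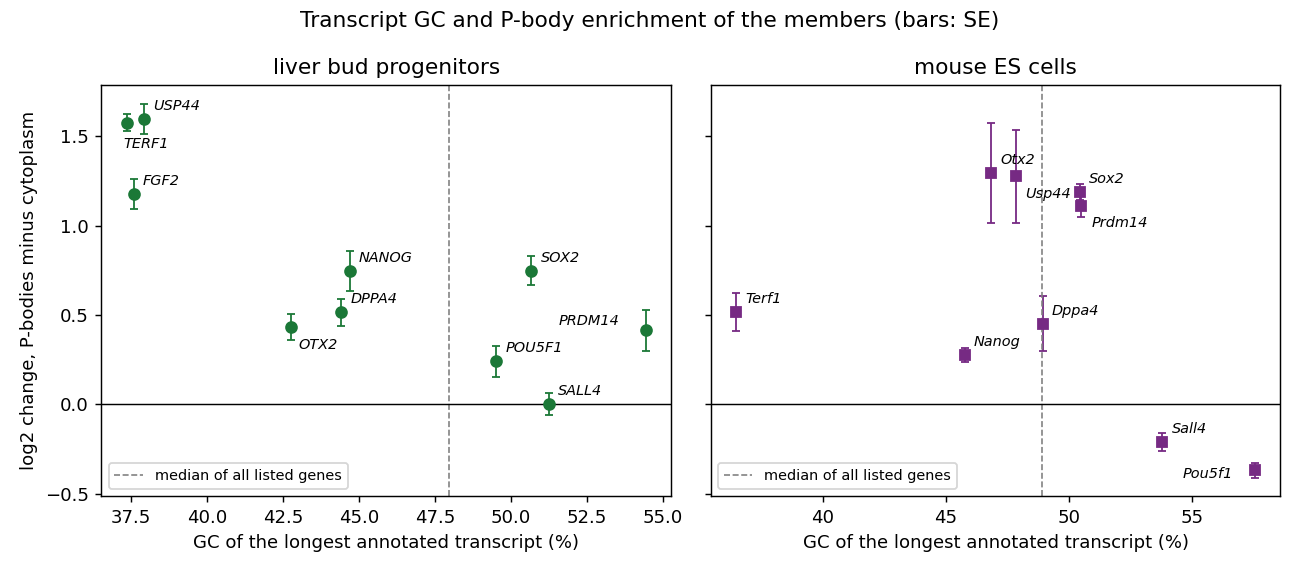
GC of the longest annotated transcript (horizontal axis, percent) against the log2 change between P-bodies and cytoplasm (vertical axis, bars of 1 SE) in liver bud progenitors (left) and mouse ES cells (right); the dashed line is the median GC of all listed genes. TERF1, FGF2 and USP44 lie at the upper left in liver bud progenitors, and Sall4 and Pou5f1 at the lower right in mouse ES cells. Neurons and HEK293T, where Spearman's rho was 0.030 with several genes on few counts, are not drawn.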

How the data were processed

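P-bodies and cytoplasm of 4 cell types were sequenced in 16 libraries, grouped by the sample labels. Deposited values are unnormalized counts of reads per gene, whole numbers, in a human (hg38) and a mouse (mm10) table, without genes under 10 counts in all. Per the methods, Smart-seq libraries (the kit the labels give for polyA RNA) were counted with HISAT and featureCounts and snapTotal-seq libraries (total RNA) with salmon in the nf-core RNA-seq pipeline. The tables do not name the pipeline of a column. Tables of the authors' own fold changes and p-values were not used.

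From the counts, genes at 0 in every compared library were left out and each comparison was fitted with TMM factors and edgeR 4.0.16 quasi-likelihood tests (R 4.3.3), two-sided, with Benjamini-Hochberg adjustment over all genes tested. An SE is the log2 change divided by the square root of its F statistic. Counting intervals are exact 95% ones, and 3 counts per library were taken as the floor. Positions, lengths and GC are from GENCODE 44 for human and an mm10 GENCODE release for mouse (92.5% and 97.6% of symbols had a value), promoters from RefSeq. The code was tested on simulated counts, with 200 genes shifted by 1.5 on the log2 scale. Of these, 97% (liver bud), 98.5% (mouse ES), 81% (neuron) and 99.5% (HEK293T) were recovered. False calls numbered 17, 12, 33 and 18 in that order. For the difference in enrichment from liver bud progenitors, 75.5% were recovered with 35 false calls in neurons, and 96.5% with 23 in HEK293T. Neurons against liver bud progenitors gave 96.5% and 31 in cytoplasm, and 84.5% and 26 in P-bodies. Alternatives were DESeq2 1.42.0, RLE factors, library size alone, filterByExpr, no filter, no ribosomal RNA genes, a single fit of the human libraries, a replicate block and leaving out each library.

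The 10 genes and all lists were chosen with earlier results of these data known. Every one of the 10 genes is named. From each list, the called gene with the largest fold in each direction and at least 20 CPM on average is named. Candidates for likeness averaged 5 CPM or more.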

Additional observations from a re-analysis of the deposited data

Results flagged for a closer look

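P-body enrichment of 5 genes differed between neurons and liver bud progenitors by a test of the difference itself (an interaction over 8 libraries). The log2 difference, neurons minus liver bud progenitors, was 0.93 for SOX2 and 0.93 for SALL4, and both kept their call under all 16 alternatives. It was 1.74 for OTX2, -0.50 for TERF1 and 0.70 for FGF2, and these 3 calls were lost under some alternatives. The P-body replicates of neurons lay further apart than those of any other group, at a chi-square of 38.1 per gene, and the part of this in the differences was not tested.

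Between HEK293T and liver bud progenitors, 4 genes differed by the same kind of test. The log2 difference, HEK293T minus liver bud progenitors, was 0.89 for SOX2, 0.91 for OTX2, -0.62 for TERF1 and -0.63 for FGF2, and each kept its call under all 16 alternatives. HEK293T libraries are labelled total RNA and liver bud libraries polyA RNA, so cell type, molecule and counting pipeline cannot be told apart in these values.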

How the results depend on the processing

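Over the 10 genes, log2 changes between fractions kept direction and call in 66 of 80 values from other settings in liver bud progenitors, 59 of 63 in mouse ES cells, 72 of 76 in neurons and 74 of 77 in HEK293T. SALL4 in liver bud progenitors turned from 0.0011 to -0.017 with DESeq2 or RLE factors, -0.021 in the single human fit, -0.022 with no ribosomal RNA genes, -0.088 with filterByExpr and to -0.19 with library size alone, which made 1 gene depleted. With library size alone, Nanog in mouse ES cells turned to -0.13, leaving 4 enriched genes there, DPPA4 turned from -0.15 to 0.21 in the difference of neurons from liver bud progenitors, and SOX2 turned to -0.35 in cytoplasm of neurons against liver bud progenitors (-0.010 in the single human fit). DPPA4 in the difference of HEK293T turned from 0.14 to -0.017 with library size alone and -0.037 with filterByExpr. The single human fit left 6 genes enriched in liver bud progenitors in place of 9 and made 8 enriched in neurons in place of 5. DESeq2 and that fit each left 3 in place of 5 genes differing between neurons and liver bud progenitors. NANOG in liver bud progenitors lost its call in the single human fit (adjusted p = 0.129), while USP44 gained one in the HEK293T difference with library size alone (-0.63, adjusted p = 0.00785). The cause of these changes was not tested.

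Without each library in turn, 1 to 2 genes were depleted in mouse ES cells, 3 to 6 enriched in neurons, and 2 to 6 differed between neurons and liver bud progenitors, the lowest without P-body replicate 1 of liver bud progenitors. Log2 values that changed sign ranged from -0.026 to 0.027 for SALL4 in liver bud progenitors, and in HEK293T from -0.092 to 1.36 for NANOG, -0.50 to 0.63 for SALL4 and -1.70 to 1.77 for DPPA4. The difference of neurons ranged from -0.064 to 0.20 for USP44. That of HEK293T ranged from -0.53 to 0.86 for NANOG, -0.19 to 0.88 for SALL4, -0.056 to 0.92 for PRDM14 and -1.88 to 1.38 for DPPA4. SOX2 in cytoplasm ranged from -0.054 to 0.12.

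Same-numbered replicates did not deviate together (r from -0.0713 to 0.0453). This cannot show whether same-numbered P-body and cytoplasm libraries came from the same lysate, and the main fits left the replicate number out. Per the methods, sorted P-bodies were stored with aliquots of the cytoplasm fraction they came from, which is a paired collection. The labels do not say that a shared number marks such a pair. With the replicate block, NANOG gained a call in neurons (2.87, adjusted p = 0.0441) and POU5F1 (1.62, adjusted p = 0.0383) and NANOG (2.11, adjusted p = 0.00197) in the difference of neurons, and no other call of the 10 genes changed.

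Counts of the smaller lists moved over all alternatives. In liver bud progenitors FGF genes ranged from 1 to 4 enriched and 3 to 6 depleted, shelterin partners from 1 to 2 enriched, and paralogs from 1 to 2 enriched and 2 to 4 depleted. In mouse ES cells depleted network genes ranged from 2 to 11, depleted FGF genes from 1 to 3, depleted shelterin partners from 0 to 2, paralogs from 5 to 8 enriched and 0 to 2 depleted, and enriched chromatin partners from 3 to 6. In neurons enriched network genes ranged from 2 to 8 and depleted ones from 0 to 1, and shelterin partners from 0 to 1 enriched and 1 to 3 depleted. In HEK293T depleted shelterin partners ranged from 1 to 2 and enriched chromatin partners from 2 to 5. Over all genes, DESeq2 called 1784 depleted in mouse ES cells in place of 3271, and without cytoplasm replicate 1 of neurons 2109 were enriched and 1892 depleted in place of 3220 and 3123 (4936 depleted in the single human fit). The 2050 genes with a larger and 1892 with a smaller enrichment in neurons became 1193 to 2772 and 1160 to 3628 without a library, and the 3339 with a larger one in HEK293T 1991 in the single human fit. In neurons POU5F1, NANOG, PRDM14 and OTX2 had at most 52 counts per fraction.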
